A study of Mus musculus with 18 samples.

Results

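The 9 genes described here carry MHC class II antigen presentation in the mouse. They are the classical chains *H2-Aa*, *H2-Ab1* and *H2-Eb1*, the invariant chain *Cd74*, the peptide exchange chains *H2-DMa*, *H2-DMb1*, *H2-DMb2* and *H2-Oa*, and the transactivator *Ciita*. They were taken by name, and their rows were found through the Ensembl identifiers of the GRCm38 annotation. All 9 were found among the 55385 genes of the count table, and 8 of them were among the 14979 genes with enough counts to be tested (at least 10 counts in at least 2 libraries). *H2-Oa* was not.

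RNA was sequenced from bone marrow-derived macrophages (BMDM) of C57BL/6J mice, all female and 12 weeks old, in 6 groups of 3 libraries. Marrow cells were grown for 7 days in medium with L-929 culture supernatant, a source of the macrophage growth factor CSF1. BMDM were then kept for 24 h in vehicle (Veh, 0.1% DMSO), in 250 µM hemicholinium-3 (HC3), which blocks choline uptake, or in 5 µM RSM-932a (RSM), an inhibitor of choline kinase. For the next 24 h they stayed naïve (M[0]) or received IL-4 at 20 ng/mL, which gives the polarized state M[IL-4]. The groups are therefore Veh M[0], HC3 M[0], RSM M[0], Veh M[IL-4], HC3 M[IL-4] and RSM M[IL-4]. The labels name 3 individual mice as the source and number the libraries of each group from 1 to 3, but do not say which number came from which mouse.

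MHC class II molecules are pairs of an α and a β chain that show peptides from the endosomal pathway to CD4+ T cells. *H2-Aa* and *H2-Ab1* encode the α and β chain of I-A. *H2-Eb1* encodes the β chain of I-E, whose α chain gene is a pseudogene in C57BL/6J mice. New class II dimers are held by the invariant chain (*Cd74*) until its remaining peptide is exchanged with the help of H2-M, a dimer of *H2-DMa* with *H2-DMb1* or *H2-DMb2*, and H2-O, of which *H2-Oa* encodes the α chain, restrains H2-M. CIITA, the product of *Ciita*, is the coactivator that a set of promoter-bound factors (the RFX complex, NF-Y and CREB family members) recruits to the X and Y boxes of these genes. Interferon gamma is its best known inducer in macrophages, and IL-4 raises class II on mouse macrophages and B cells.

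The H2 genes lie together on chromosome 17 (GRCm38). *H2-Oa* (ENSMUSG00000024334) spans chr17:34092340-34095234, *H2-DMa* (ENSMUSG00000037649) chr17:34119541-34139101, *H2-DMb2* (ENSMUSG00000037548) chr17:34143307-34151555 and *H2-DMb1* (ENSMUSG00000079547) chr17:34153072-34160230. The classical chains follow, with *H2-Ab1* (ENSMUSG00000073421) at chr17:34257689-34269419, *H2-Aa* (ENSMUSG00000036594) on the reverse strand at chr17:34282744-34287823 and *H2-Eb1* (ENSMUSG00000060586) at chr17:34305867-34316674. *Ciita* (ENSMUSG00000022504) is at chr16:10480059-10528418, and *Cd74* is ENSMUSG00000024610. Exonic reads of some members could belong to another gene, because the strand setting of the counting is not given in the sources used here. The part of the exonic length that overlaps a gene of the other strand was 10.4% for *H2-DMa* (*Brd2*), 22.8% for *H2-Oa* (*BC051537*) and 3.45% for *Ciita* (*Dexi*). *H2-DMb1* and *H2-DMb2* are near copies, with 14.2% and 13.5% of the longest transcript at least 98% identical to the other, so the split of reads between them is uncertain.

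The X and Y boxes are what class II genes are known to share, and the sequences just before the transcript start are shown so that these boxes can be compared between members. RefSeq promoter windows (GRCm38.p6, 250 bases before to 50 after each start) were held for 6 of the 9 members, and for none of *H2-Ab1*, *Cd74* and *Ciita*. The letters GNAAC, the core of the X box, were searched on both strands where GATTGG followed after 24 to 27 bases. GATTGG is the Y box that NF-Y binds, and the 2 motifs did not overlap. These letters were set after the sequences had been looked at. The limits of 24 and 27 bases are also the shortest and longest spacing in the class II genes that held the pair. The 150 bases before the start are given 5′ to 3′ on the strand of the gene, with the X core and the Y box in capitals. They are chr17:34287824-34287973 for *H2-Aa* (minus strand), chr17:34305717-34305866 for *H2-Eb1*, chr17:34153041-34153190 for *H2-DMb1*, chr17:34092229-34092378 for *H2-Oa* and chr17:34145099-34145248 for *H2-DMb2* (all plus strand). The RefSeq starts of *H2-DMa*, *H2-DMb1*, *H2-DMb2* and *H2-Oa* lie inside the gene spans given above.
H2-Aa: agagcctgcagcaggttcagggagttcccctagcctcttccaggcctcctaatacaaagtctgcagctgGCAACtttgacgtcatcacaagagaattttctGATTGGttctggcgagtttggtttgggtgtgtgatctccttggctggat
H2-Eb1: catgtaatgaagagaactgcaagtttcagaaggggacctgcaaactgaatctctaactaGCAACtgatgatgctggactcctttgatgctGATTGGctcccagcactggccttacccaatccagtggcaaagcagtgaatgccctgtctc
H2-DMb1: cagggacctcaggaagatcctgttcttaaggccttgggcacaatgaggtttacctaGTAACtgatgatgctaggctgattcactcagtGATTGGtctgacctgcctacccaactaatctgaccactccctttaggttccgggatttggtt
H2-Oa: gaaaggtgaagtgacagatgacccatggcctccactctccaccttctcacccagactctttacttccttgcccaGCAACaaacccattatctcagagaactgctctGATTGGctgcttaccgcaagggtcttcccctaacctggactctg
H2-DMb2: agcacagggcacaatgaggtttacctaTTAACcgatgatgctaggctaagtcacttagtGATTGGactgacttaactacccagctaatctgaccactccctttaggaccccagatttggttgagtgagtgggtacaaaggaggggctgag

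The spaced pair was found in 4 of the 6 members with a window, *H2-Aa*, *H2-Eb1*, *H2-DMb1* and *H2-Oa*. Among all 32851 windows of 300 bases, 77 (0.234%) held it on either strand, while GATTGG alone was in 16.1% and GNAAC alone in 84.9%. These shares are a description and no test of the members, because the letters were set after these sequences had been looked at. The X core began 81 bases before the start in *H2-Aa*, 91 in *H2-Eb1*, 94 in *H2-DMb1* and 76 in *H2-Oa*. Neither window of *H2-DMa* (chr17:34122582-34122881 and chr17:34125268-34125567) held the pair. Both lie inside its gene span, and the bases before that span were not searched, so a pair there would be missed. *H2-DMb2* had GATTGG but no GNAAC at that distance before it. When its window was laid on that of *H2-DMb1* from the X core to the Y box, 33 of 38 bases were identical, and of the 5 differences 1 fell in the X core, G1T (counted from the first base of the X core, *H2-DMb1* letter first), which is why TTAAC is the stretch in capitals there. *H2-Oa* held the pair and had almost no reads, and so did the other class II genes *H2-Ob* and *H2-Eb2*, with at most 7 counts in any library.

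**Figure D1:**
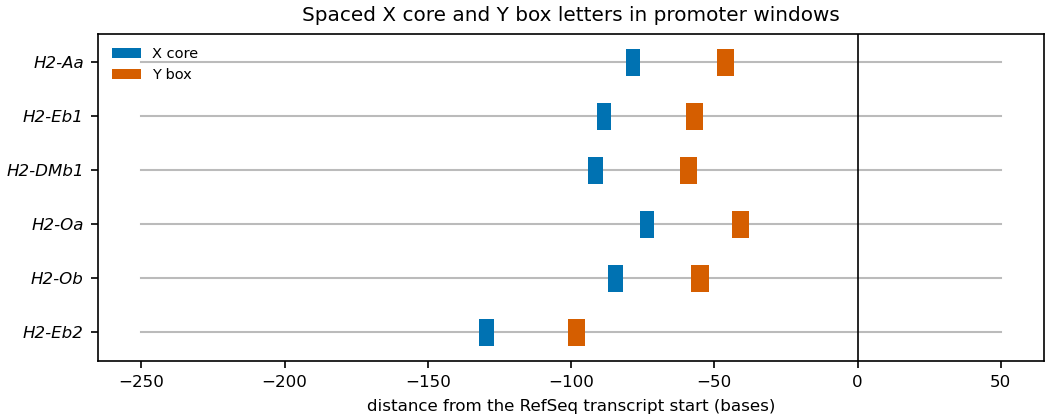
Position of the X core (blue) and the Y box (orange) in the promoter windows that held the spaced pair; the x axis is the distance from the RefSeq transcript start in bases, and each row is a gene (*H2-Ob* and *H2-Eb2* are class II genes outside the 9). The X core lies 76 to 132 bases before the start, and 24 to 27 bases separate it from the Y box.

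Total counts were 17457796 to 19522255 per library, and a count of 3 in a library corresponded to a CPM (the library's counts scaled to a common total) of 0.153 to 0.176, below which a value is not told from 0; this covers counting error only. Levels are TMM-scaled CPM, with the mean ± SD over the 3 libraries of a group, and a gene is called when its Benjamini-Hochberg FDR in the edgeR quasi-likelihood fit is under 0.05 and its log2 fold change is at least 1 or at most -1. The smallest p that permuting 3 and 3 libraries exactly can give for 1 gene is 0.1, and p-values are therefore taken from the model over all tested genes. The macrophage markers *Csf1r* and *Adgre1* were abundant in every library, with group means of 1519 to 3967 CPM and 1218 to 2837 CPM. Both inhibitors were compared with the same vehicle libraries, so their comparisons share controls and are given side by side. HC3 and RSM were used at different doses.

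Within a group, levels of different members can only be set side by side per length (CPM per kb of exon). In Veh M[0], *Cd74* stood first, at 295 ± 80.5 CPM per kb. *H2-Eb1* (39.2 ± 12.8), *H2-Ab1* (31.3 ± 10.6) and *H2-Aa* (30.0 ± 8.87) followed and did not differ beyond their spread. *H2-DMb1* was at 14.3 ± 1.56 CPM per kb and *H2-DMa* at 3.71 ± 0.889, while *Ciita* (0.949 ± 0.223) and *H2-DMb2* (0.820 ± 0.0123) were last of the tested members and within each other's spread. The order was the same in Veh M[IL-4], from *Cd74* at 1139 ± 238 to *H2-DMb2* at 0.898 ± 0.564 CPM per kb. In RSM the order of chains changed: *H2-DMb1* came next after *Cd74*, at 10.2 ± 0.672 CPM per kb in M[0] and 13.3 ± 0.112 in M[IL-4], above *H2-Ab1* (2.94 ± 0.317 and 9.51 ± 1.5). *H2-Aa*, *H2-Ab1*, *H2-Eb1* and *Cd74* together took 0.0681% of all counts in the median Veh M[0] library, against 0.0274% with HC3 and 0.00746% with RSM. With IL-4 the corresponding medians were 0.249%, 0.102% and 0.0289%.

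**Figure D2:**
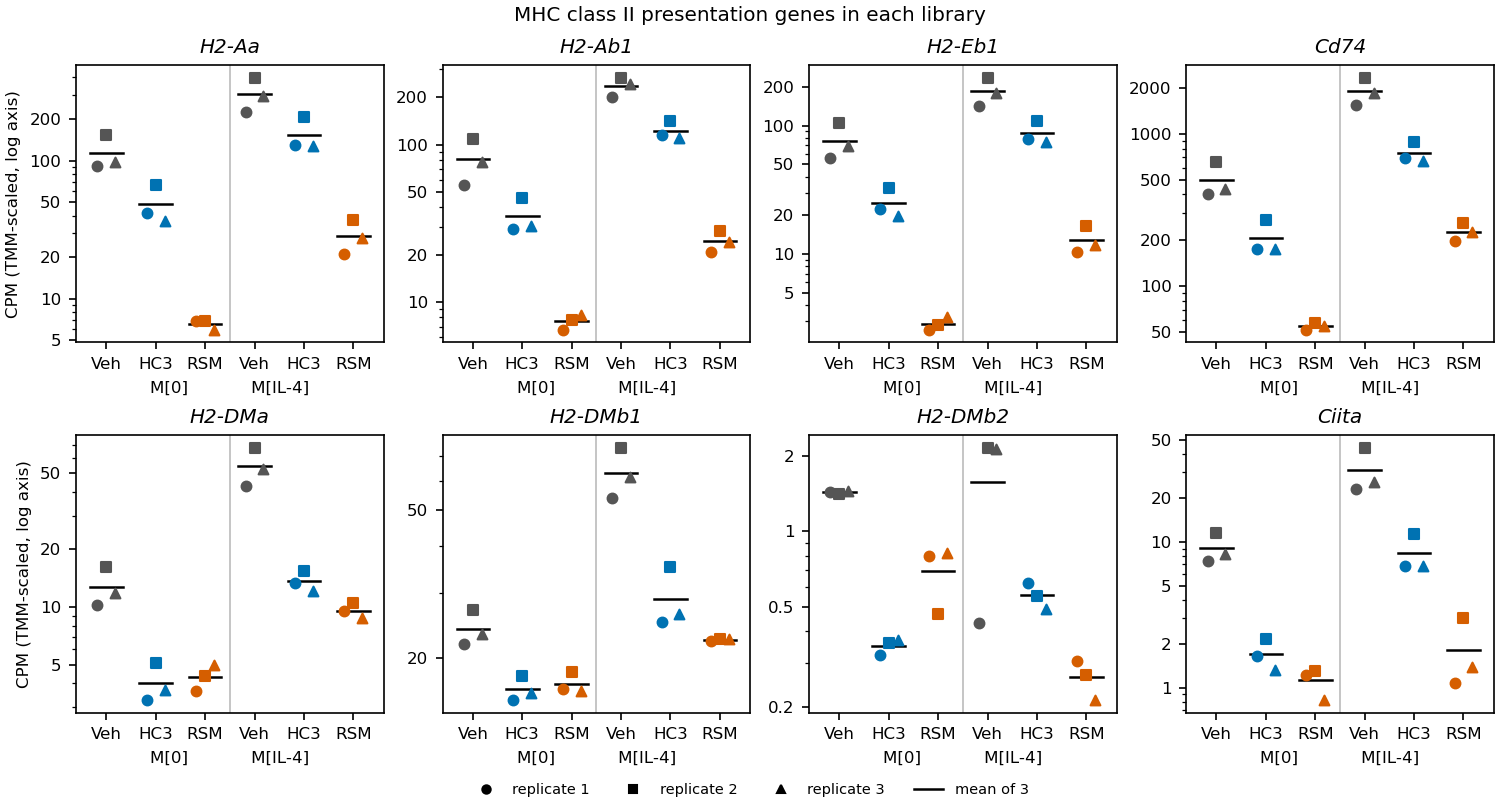
Expression of the 8 tested members in each of the 18 libraries, in TMM-scaled CPM on a log axis, with Veh in grey, HC3 in blue and RSM in orange, M[0] on the left and M[IL-4] on the right of each panel; marker shapes are replicate numbers and bars the mean of 3. For *H2-Aa*, *H2-Ab1*, *H2-Eb1* and *Cd74* the 3 treatments step down from Veh to HC3 to RSM in both polarizations without overlap, while *H2-DMa* and *H2-DMb1* show HC3 and RSM at the same height in M[0].

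The classical chains were lower with HC3 and far lower with RSM, in naïve and in IL-4-polarized macrophages. For *H2-Aa*, libraries 1 to 3 had 91.5, 153 and 97.9 CPM in Veh M[0], 41.8, 66.4 and 36.3 in HC3 M[0], and 6.94, 6.96 and 5.96 in RSM M[0]. In M[IL-4] they had 223, 396 and 293 CPM with Veh, 129, 205 and 128 with HC3, and 21.1, 37.1 and 27.7 with RSM. Every treated library was below every vehicle library of its polarization, and every RSM library was below every HC3 library. In a bulk sample such a fall can mean fewer cells that express the gene or less RNA per cell, which cannot be told apart here. HC3 lowered *H2-Aa* 2.36-fold in M[0] (log2 fold change -1.24, SE 0.262, FDR = 0.000766) and RSM lowered it 17.2-fold (-4.11, SE 0.317, FDR = 5.21e-09). In M[IL-4] the value for HC3 was -0.98 (SE 0.252, FDR = 0.00438), short of the fold threshold, and RSM lowered the gene 10.6-fold (-3.41, SE 0.281, FDR = 1.40e-08).

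*H2-Ab1* libraries had 55, 109 and 77.0 CPM in Veh M[0], 29.0, 46.1 and 30.5 in HC3 M[0], and 6.67, 7.74 and 8.27 in RSM M[0]. With IL-4 the values were 201, 265 and 242 CPM with Veh, 114, 141 and 110.2 with HC3, and 20.7, 28.4 and 24.2 with RSM. None of the 3 treatments overlapped another within a polarization. HC3 lowered *H2-Ab1* 2.28-fold in M[0] (-1.19, SE 0.205, FDR = 0.000107), its value in M[IL-4] was -0.95 (SE 0.195, FDR = 0.000659, short of the fold threshold), and RSM lowered it 10.6-fold in M[0] and 9.67-fold in M[IL-4] (FDR = 1.30e-09 and 7.84e-10). The calls of *H2-Aa* and *H2-Ab1* for HC3 in M[0] rested on the highest vehicle library: without Veh M[0] replicate 2 the values were -0.97 and -0.91, just short of the fold threshold.

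*H2-Eb1* showed the widest range of the 3. Its libraries had 55.7, 104 and 68.9 CPM in Veh M[0], 22.6, 32.4 and 19.7 in HC3 M[0], and 2.56, 2.77 and 3.23 in RSM M[0], the last from 48 to 63 counts per library. In M[IL-4] they had 143, 235 and 179 CPM with Veh, 79.2, 109 and 74.9 with HC3, and 10.3, 16.6 and 11.7 with RSM. Again no treatment overlapped another. RSM lowered *H2-Eb1* 26.6-fold in M[0] (-4.73, SE 0.306, FDR = 4.59e-10) and 14.4-fold in M[IL-4] (-3.85, SE 0.258, FDR = 9.53e-10). HC3 lowered it 3.06-fold in M[0] (-1.61, SE 0.238, FDR = 2.01e-05) and 2.12-fold in M[IL-4] (-1.08, SE 0.223, FDR = 0.000712). The last call was lost without Veh M[IL-4] replicate 2 or without HC3 M[IL-4] replicate 3, with values down to -0.88.

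*Cd74*, the invariant chain, was the most abundant member and fell in the same steps. Libraries had 402, 650.2 and 434 CPM in Veh M[0], 174, 273 and 174 in HC3 M[0], and 51.5, 57.0 and 54.6 in RSM M[0]. In M[IL-4] they had 1538, 2333 and 1867 CPM with Veh, 693, 889 and 667 with HC3, and 198, 259 and 227 with RSM. The 3 treatments did not overlap in either polarization. HC3 lowered *Cd74* 2.39-fold in M[0] (-1.26, SE 0.195, FDR = 3.38e-05) and 2.55-fold in M[IL-4] (-1.35, SE 0.193, FDR = 1.64e-05), and RSM lowered it 9.11-fold and 8.39-fold (-3.19, SE 0.211, FDR = 6.30e-10, and -3.07, SE 0.206, FDR = 9.67e-10).

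The H2-M chains, which load peptide, behaved differently from the chains they load. *H2-DMa* had 10.3, 16.2 and 11.9 CPM in Veh M[0], 3.26, 5.12 and 3.68 in HC3 M[0], and 3.63, 4.34 and 4.98 in RSM M[0]. In M[IL-4] it had 42.9, 67.8 and 52.5 CPM with Veh, 13.4, 15.4 and 12.2 with HC3, and 9.53, 10.4 and 8.78 with RSM. Within each polarization every treated library was below every vehicle library, but HC3 and RSM overlapped in M[0]. In naïve cells the gene fell 3.17-fold with HC3 (-1.66, SE 0.208, FDR = 2.86e-06) and 2.95-fold with RSM (-1.56, SE 0.207, FDR = 5.78e-06), and in polarized cells 3.98-fold and 5.67-fold (FDR = 5.92e-08 and 3.85e-09).

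*H2-DMb1* moved least in naïve cells. It had 21.9, 27 and 23.2 CPM in Veh M[0], 15.5, 18 and 16.1 in HC3 M[0], and 16.5, 18.4 and 16.4 in RSM M[0]. With IL-4 it had 53.7, 73.3 and 61.4 CPM with Veh, 25.1, 35.1 and 26.2 with HC3, and 22.2, 22.6 and 22.5 with RSM. In M[0] the values were -0.54 for HC3 (SE 0.130, FDR = 0.00238) and -0.49 for RSM (SE 0.130, FDR = 0.00524), neither reaching the fold threshold. In M[IL-4] the gene fell 2.18-fold with HC3 (-1.12, SE 0.124, FDR = 7.04e-07; -0.998 and not called without Veh M[IL-4] replicate 2) and 2.8-fold with RSM (FDR = 2.00e-08).

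*H2-DMb2*, the near copy of *H2-DMb1*, was scarce, with 4 to 38 counts per library. It had 1.44, 1.41 and 1.45 CPM in Veh M[0], 0.321, 0.359 and 0.368 in HC3 M[0], and 0.800, 0.471 and 0.821 in RSM M[0]. The M[IL-4] libraries had 0.431, 2.15 and 2.13 CPM with Veh, 0.623, 0.553 and 0.493 with HC3, and 0.306, 0.269 and 0.213 with RSM. Veh M[IL-4] replicate 1 was below all 3 HC3 libraries, so these groups overlapped. HC3 lowered the gene in M[0] (-2.02, SE 0.465, FDR = 0.00166), and RSM lowered it in M[IL-4] (-2.54, SE 0.484, FDR = 0.000327). The value for RSM in M[0] was -1.03 (SE 0.422, FDR = 0.0583), not a call, though every RSM library was below every vehicle library. It was a call with the replicate number as a block within each polarization (-1.04, FDR = 0.0402). A fit of only the compared groups (-1.03, FDR = 0.0278) and leaving out replicate 1 also made it a call. The call for HC3 in M[IL-4] (-1.48, SE 0.436, FDR = 0.0111) was lost in a fit of only the compared groups (FDR = 0.0667) and without replicate 2 or 3 of Veh M[IL-4], with values down to -1.11.

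*H2-Oa* had 0 to 2 counts in every library and 0 in all 3 libraries of HC3 M[IL-4], at or under the limit of 3 counts. No difference in *H2-Oa* was detectable at this depth, and no fold is given.

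*Ciita*, the coactivator of the other members, was low in absolute terms and fell with both inhibitors. It had 7.41, 11.5 and 8.28 CPM in Veh M[0], 1.66, 2.15 and 1.32 in HC3 M[0], and 1.23, 1.31 and 0.821 in RSM M[0]. In M[IL-4] it had 23.2, 44.1 and 25.7 CPM with Veh, 6.85, 11.3 and 6.84 with HC3, and 1.07, 3.01 and 1.38 with RSM. All treated libraries were below all vehicle libraries of the same polarization; the RSM M[0] values rest on 16 to 25 counts each. In M[0], *Ciita* fell 5.26-fold with HC3 (-2.40, SE 0.346, FDR = 1.60e-05) and 8.05-fold with RSM (-3.01, SE 0.369, FDR = 2.33e-06). After IL-4 it fell 3.71-fold with HC3 (-1.89, SE 0.286, FDR = 3.06e-05) and 17-fold with RSM (-4.09, SE 0.336, FDR = 1.39e-08). The promoters used to start *Ciita* transcripts differ between cell types, and gene counts do not separate them.

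Counted together, 7 of the 8 tested members were called lower with HC3 in M[0], where 6.11% of all tested genes were called lower, and all 8 had an FDR under 0.05 (21.5% of all tested genes were lower by the FDR alone). With RSM in M[0], 6 of 8 were called lower (6.51% of all tested genes). In M[IL-4], 6 of 8 were called lower with HC3 (5.53%) and 8 of 8 with RSM (6.00%). No member was called higher in any of these comparisons. The tested members had a median log2 fold change of -1.44 for HC3 and -3.10 for RSM in naïve cells, and of -1.24 and -3.17 in M[IL-4], beside medians of 0.02, 0.01, 0.01 and 0.02 over all tested genes. Leaving out single libraries moved the count for HC3 in M[IL-4] between 3 and 8; it was 3 without Veh M[IL-4] replicate 2.

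**Figure D3:**
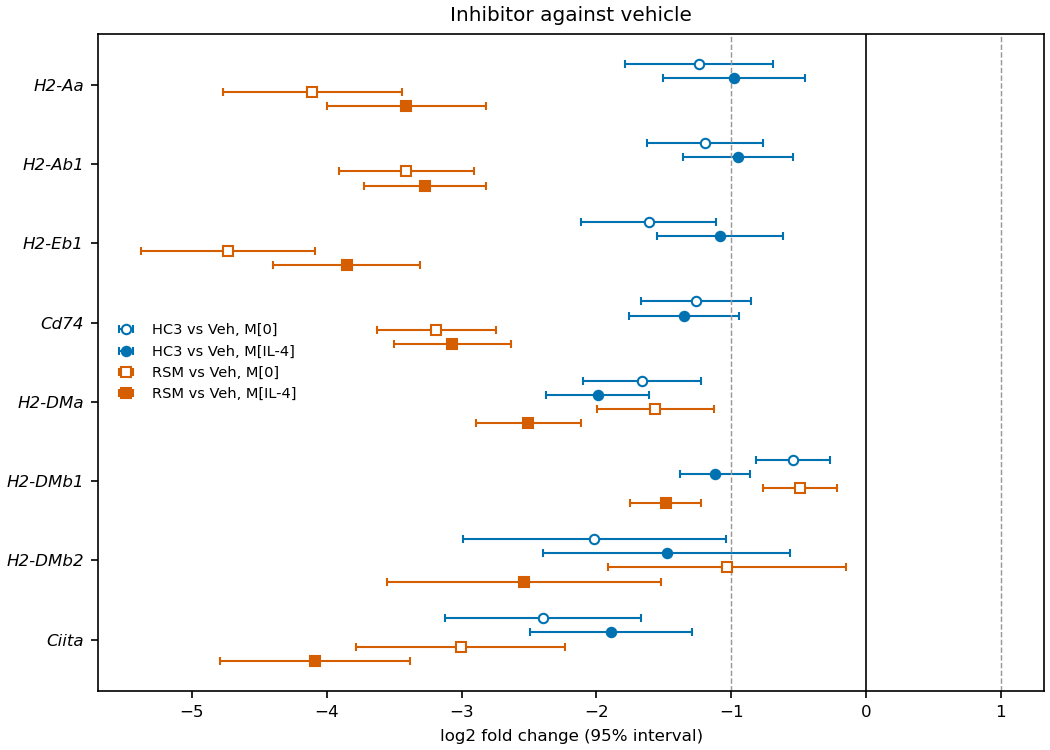
Log2 fold change of each tested member with HC3 (blue circles) or RSM (orange squares) against Veh, in M[0] (open) and M[IL-4] (filled), with 95% intervals from the edgeR fit; dashed lines mark -1 and 1. RSM lies far to the left of HC3 for *H2-Aa*, *H2-Ab1*, *H2-Eb1* and *Cd74* in both polarizations, and on top of it for *H2-DMa* and *H2-DMb1* in M[0].

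HC3 and RSM were also compared directly. In M[0], *H2-Aa* was 7.29-fold, *H2-Ab1* 4.65-fold, *H2-Eb1* 8.70-fold and *Cd74* 3.81-fold higher with HC3 than with RSM, and these 4 members were called (1.61% of all tested genes were called higher with HC3; FDR at most 3.93e-06). *H2-DMa* differed by -0.10 (95% interval -0.58 to 0.38) and *H2-DMb1* by -0.05 (-0.33 to 0.23), so a difference of 1 log2 unit lies outside both intervals. *Ciita* differed by 0.61, with an interval from -0.30 to 1.53 (FDR = 0.416), which leaves room for a called difference. In M[IL-4] the same 4 members were called at 3.29-fold to 6.83-fold higher with HC3, and *Ciita* was too, at 4.59-fold (SE 0.345 on the log2 scale, FDR = 0.000207); 1.21% of all tested genes were called higher there. *H2-DMa* (0.51, FDR = 0.0886) and *H2-DMb1* (0.36, FDR = 0.0709) did not pass the test (0.51, FDR = 0.00217, and 0.35, FDR = 0.00225, with the replicate number as a block within each polarization, still short of the fold threshold), and *H2-DMb2* differed by -0.98 in M[0] and 1.06 in M[IL-4] (FDR = 0.224 and 0.243).

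IL-4 raised the class II genes in vehicle-treated macrophages. *H2-Aa* rose 2.67-fold (1.42, SE 0.255, FDR = 0.000301), *H2-Ab1* 2.94-fold, *H2-Eb1* 2.44-fold and *Cd74* 3.86-fold (FDR at most 0.000301 in these 4). *H2-DMa* rose 4.26-fold (2.09, SE 0.183, FDR = 5.50e-08), *H2-DMb1* 2.61-fold and *Ciita* 3.43-fold (1.78, SE 0.284, FDR = 8.86e-05). In each of these 7 genes every M[IL-4] library was above every M[0] library, and the share of all tested genes separated in this way is not given. The 7 of 8 tested members called higher stand beside 2.83% of all tested genes. *H2-DMb2* differed by 0.12 with an interval from -0.70 to 0.94, and its libraries overlapped.

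The IL-4 response was measured within each inhibitor as well. With HC3, 6 of 8 members were called higher in M[IL-4] than in M[0] (1.82% of all tested genes), from 3.20-fold for *H2-Aa* to 4.86-fold for *Ciita*, and *H2-DMb1* differed by 0.80 (FDR = 0.000213). With RSM, 5 of 8 were called higher (2.45%): *H2-Aa* 4.32-fold, *H2-Ab1* 3.22-fold, *H2-Eb1* 4.48-fold, *Cd74* 4.20-fold and *H2-DMa* 2.22-fold. *Ciita* libraries overlapped between RSM M[0] and RSM M[IL-4], with a difference of 0.70 (95% interval -0.21 to 1.60, FDR = 0.340). With the replicate number as a block over all groups the *Ciita* value was 0.67 (FDR = 0.0483), past the FDR and short of the fold threshold. *H2-DMb1* differed by 0.39 (FDR = 0.0491) and *H2-DMb2* by -1.38 (95% interval -2.48 to -0.29, FDR = 0.0868). Every *H2-DMb2* library of RSM M[IL-4] was below every one of RSM M[0], at 4 to 16 counts. Thus the classical chains, *Cd74* and *H2-DMa* were higher after IL-4 in cells treated with RSM, but from a low base. *H2-Aa* in RSM M[IL-4] (28.6 ± 8.07 CPM) stood below *H2-Aa* in Veh M[0] (114 ± 33.7 CPM).

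**Figure D4:**
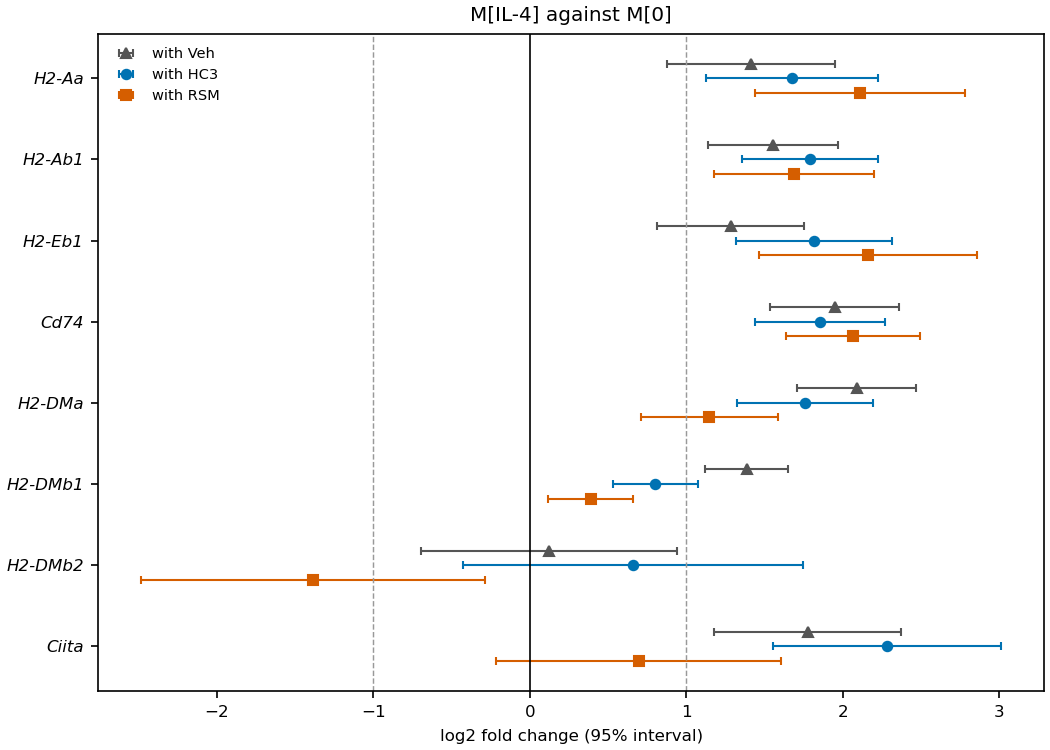
Log2 fold change of each tested member between M[IL-4] and M[0] with Veh (grey triangles), HC3 (blue circles) and RSM (orange squares), with 95% intervals from the edgeR fit; dashed lines mark -1 and 1. The intervals of the classical chains and *Cd74* overlap across treatments, whereas *H2-DMa*, *H2-DMb1*, *H2-DMb2* and *Ciita* have their lowest values with RSM, below 0 for *H2-DMb2*.

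Whether an inhibitor changed the size of the IL-4 response was tested as an interaction, in which a value of 0 means the same fold of IL-4 with and without the inhibitor. No member was called by edgeR for HC3 or for RSM (1.24% and 2.14% of all tested genes were called in either direction), while 1 and 4 had an unadjusted p under 0.05. The share of all tested genes at that unadjusted cutoff is not given. DESeq2 called 0 for HC3 and 1, *H2-DMb1*, for RSM. For RSM, *H2-DMb1* had a value of -0.996 (SE 0.180, FDR = 0.00131) and *H2-DMa* of -0.94 (SE 0.277, FDR = 0.0388), both past the FDR (9.19% of all tested genes were, in either direction) and short of the fold threshold. The classical chains and *Cd74* had values of 0.12 to 0.88 for RSM, and *Ciita* -1.08 (SE 0.525, FDR = 0.243). With the replicate number as a block within each polarization *Ciita* was at -1.09 with FDR = 0.00384, a call, and the count for RSM became 1; without replicate 2 it was 2. In that blocked fit *H2-Aa* (0.69, FDR = 0.00101) and *H2-Eb1* (0.86, FDR = 0.00127) passed the FDR for RSM with the opposite sign, and for HC3 *H2-Eb1* was at 0.53 (FDR = 0.00260) and *H2-DMb1* at -0.59 (FDR = 0.000674). For HC3 without the block, no member passed the FDR, and *H2-DMb1* had the value nearest to it (-0.58, FDR = 0.0601).

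Ratios within a library do not depend on its depth and show which members moved together. Per kb, *H2-Eb1* relative to *H2-Ab1* was 1.34, 1.26 and 1.18 in Veh M[0], 1.03, 0.929 and 0.853 in HC3 M[0], and 0.507, 0.473 and 0.517 in RSM M[0]. The 3 treatments did not overlap, so the I-E β chain fell further than the I-A β chain with either inhibitor in naïve cells. In M[IL-4] the ratio was 0.943 to 1.17 with Veh, 0.898 to 1.02 with HC3 and 0.639 to 0.772 with RSM, where only RSM stood apart. *H2-Aa* relative to *H2-Ab1*, the chains of 1 dimer, had medians of 0.945, 0.974 and 0.608 in the Veh, HC3 and RSM groups of M[0], and its M[IL-4] medians were 0.817, 0.788 and 0.773. *Cd74* relative to *H2-Ab1* was 9.26 to 9.63 with HC3 in M[IL-4], below Veh (11.7 to 13.5) and RSM (14.0 to 14.7).

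The H2-M chains also came apart. *H2-DMa* relative to *H2-DMb1* was 0.229 to 0.293 in Veh M[0], 0.103 to 0.139 in HC3 M[0] and 0.107 to 0.148 in RSM M[0], so both inhibitors were below vehicle and overlapped each other. In M[IL-4] it was 0.389 to 0.451 with Veh, 0.214 to 0.261 with HC3 and 0.190 to 0.226 with RSM. No test is given for these ratios, since 3 libraries against 3 cannot go below p = 0.1 in an exact permutation test. Part of the *H2-DMa* exons overlaps *Brd2* on the other strand, and its share in the ratio was not tested.

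**Figure D5:**
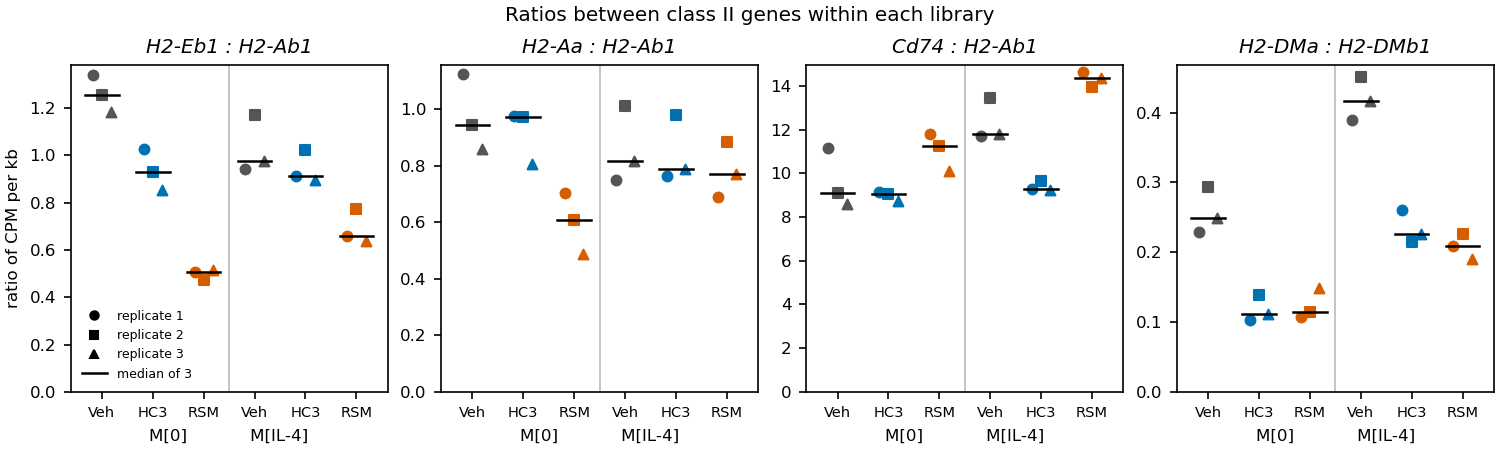
Ratios of CPM per kb between members within each library, for *H2-Eb1* to *H2-Ab1*, *H2-Aa* to *H2-Ab1*, *Cd74* to *H2-Ab1* and *H2-DMa* to *H2-DMb1*, by group (Veh grey, HC3 blue, RSM orange); marker shapes are replicate numbers and bars the median of 3. *H2-Eb1* to *H2-Ab1* is lowest with RSM in both polarizations, and *H2-DMa* to *H2-DMb1* is lowered by HC3 and RSM alike.

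The wider pathway was followed in a list of 41 other genes, of which 38 were tested. The remaining class II region genes had too few reads: *H2-Ob* 0 to 7 counts, *H2-Eb2* 0 to 2 and the pseudogene *H2-Ea-ps* 0 in all libraries, which allows up to 3 counts. Of the 38, 5 were called lower with HC3 in M[0] and 0 higher (6.11% and 5.93% of all tested genes). With RSM in M[0], 3 were called lower and 1 higher (6.51% and 5.05%). In M[IL-4], HC3 gave 2 lower and 1 higher (5.53% and 4.72%), and RSM 3 lower and 2 higher (6.00% and 5.05%). The list medians were -0.15, -0.14, -0.18 and -0.02 in the same order.

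The factors that bind the X and Y boxes (*Rfx5*, *Rfxap*, *Rfxank*, *Nfya*, *Nfyb*, *Nfyc* and *Creb1*) were among them, and 0 of 7 were called in any of the 11 comparisons by edgeR or by DESeq2. At an unadjusted p under 0.05, 3 of 7 differed with HC3 in either polarization, 3 with RSM in M[0] and 1 with RSM in M[IL-4]. The share of all tested genes at that cutoff is not given, so nothing is read from these counts about the factors as a set. *Rfx5*, the DNA-binding subunit of RFX, had values of -0.60 (FDR = 0.000730) with HC3 and -0.42 (FDR = 0.0114) with RSM in naïve cells. In M[IL-4] they were -0.87 (FDR = 2.23e-05) and -0.26 (FDR = 0.113). The called genes lay elsewhere. *Irf4*, an interferon regulatory factor that IL-4 induces, was at 71.6 ± 10.6 CPM in Veh M[IL-4], 14.8 ± 2.42 in HC3 M[IL-4] and 13.1 ± 2.70 in RSM M[IL-4]; the IL-4 rise in vehicle was 4.10 on the log2 scale. Between the inhibitors *Irf4* differed by 0.17 in M[IL-4] (HC3 against RSM, 95% interval -0.17 to 0.52). The members there ran from 0.36 for *H2-DMb1* and 0.51 for *H2-DMa* to 2.77 for *H2-Eb1*. In the RSM by IL-4 interaction *Irf4* was called with a negative value and *Ifngr1* with a positive one, of 38 genes (2.14% of all tested genes in either direction). The part of *Irf4* in the class II results was not tested. *Socs3*, a feedback inhibitor of cytokine receptors, rose from 4.71 ± 1.2 CPM in Veh M[IL-4] to 10.3 ± 2.70 with HC3 and 19.4 ± 5.77 with RSM (1.12, FDR = 0.00217, and 2.04, FDR = 3.48e-06), and in M[0] it rose with RSM (1.09, FDR = 0.00138).

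*March1*, a ubiquitin ligase that removes class II from the surface, fell with both inhibitors in both polarizations, from 56.2 ± 7.52 to 14.5 ± 2.87 CPM with HC3 and 19.2 ± 2.49 with RSM in naïve cells. Its M[IL-4] levels were 80.1 ± 20.8 CPM with Veh, 20.4 ± 4.77 with HC3 and 20.3 ± 5.87 with RSM. *Cst3*, the cystatin that inhibits endosomal cysteine proteases, was called lower with HC3 and RSM in M[0] (-1.21 and -1.68) and with RSM in M[IL-4] (-1.17). With HC3 in M[IL-4] its mean was 598 CPM, against 1185 CPM with Veh, short of a call. RSM raised the protease *Ctsl* in M[IL-4] (1.67, FDR = 1.29e-11), and legumain (*Lgmn*) fell with HC3 in M[0] (-1.36, FDR = 1.26e-11). *Ifngr1*, the ligand-binding chain of the interferon gamma receptor, is named as the fifth called gene for HC3 in M[0] after its value was seen (-1.15, FDR = 3.83e-10). Its means were 250, 113 and 141 CPM for Veh, HC3 and RSM in M[0], and 197, 130 and 243 CPM in M[IL-4]. With IL-4 in vehicle, 3 of 38 were called higher (2.83% of all tested genes): *Irf4*, the feedback inhibitor *Socs1* (3.94) and *Ap2m1*, a subunit of the clathrin adaptor (1.37).

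Markers of other cells that can carry class II were read in the same libraries. Of 10 dendritic cell markers, 3 were tested, and the summed level of the list was 2.82 to 4.19 CPM in Veh M[0], 1.64 to 3.10 in HC3 M[0] and 1.39 to 2.09 in RSM M[0]. After IL-4 it was 23.2 to 30.7 CPM with Veh, 7.36 to 10.1 with HC3 and 3.45 to 5.06 with RSM, most of it from *Batf3* (23.6 ± 3.96, 6.50 ± 1.71 and 3.03 ± 1.09 CPM). *Batf3* was called lower with both inhibitors in both polarizations and higher with IL-4 in each treatment, while *Flt3* and *Siglech* were at most 0.256 and 0.205 CPM in any library. *Zbtb46*, a transcription factor of classical dendritic cells, rose with IL-4 in vehicle (1.61, FDR = 0.0427), from 0.565 ± 0.444 to 1.76 ± 0.449 CPM, and was not called with either inhibitor. *Clec9a*, too scarce to be tested, had 17 counts over the Veh M[0] libraries, 0 with HC3 and 1 with RSM. *Itgax* (CD11c), which is in none of the lists and was picked after its values were seen, had means of 61.0, 50.4 and 2.15 CPM for Veh, HC3 and RSM in naïve cells and of 1109, 494 and 90.2 CPM after IL-4 (r = 0.912 with the classical chains). Of 8 B cell markers, 3 were tested; their sum was 26.8 to 34.2 CPM in Veh M[0] and 6.47 to 9.99 with HC3 and 7.24 to 9.62 with RSM. *Ighm* made most of that difference, at 23.5 ± 3.13 CPM in Veh M[0], 1.79 ± 0.680 with HC3 and 0.665 ± 0.274 with RSM. In M[IL-4] the B cell sum was 11.8 to 17.9 CPM with Veh, 8.32 to 9.51 with HC3 and 9.12 to 12.2 with RSM. *Ms4a1*, *Pax5* and *Blk* were at most 0.113, 0.0538 and 0.160 CPM. IL-4 lowered *Ighm* in vehicle (-2.08, FDR = 6.41e-06), opposite to the class II genes. *Cd22*, another tested B cell marker, rose there instead (0.57, FDR = 0.0181, short of the fold threshold). Neither inhibitor gave a call for *Cd22*. Its naïve means were 6.2 CPM (Veh), 6.2 (HC3) and 7.5 (RSM), and its means after IL-4 were 9.3, 7.2 and 10.2 CPM. It made up most of the B cell sum after IL-4. The part of these cells in the class II results was not tested.

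Stromal and macrophage markers moved with the inhibitors too. The sum of 8 stromal markers was 594 to 1026 CPM in Veh M[0], 1307 to 1839 with HC3 and 1069 to 1571 with RSM, and 340.2 to 799, 622 to 1189 and 574 to 1177 CPM in the M[IL-4] groups. Most of this sum was *Col1a1* and *Col1a2* (means of 270.5 and 358 CPM in Veh M[0]), and the list did not move together. *Col3a1* means were 42.15, 115 and 94.2 CPM for Veh, HC3 and RSM in M[0]. Those of *Col6a1* were 113, 120 and 64.5 CPM. *Dcn* fell with RSM, from 8.50 to 2.99 CPM in M[0] and from 5.93 to 2.02 in M[IL-4]. The sum of 9 macrophage markers fell from 20860 to 21860 CPM in Veh M[0] to 9004 to 10030 with HC3 and 16060 to 17430 with RSM, and was 12330 to 12640, 7887 to 9011 and 11230 to 13520 CPM in M[IL-4]. Much of this sum was the lysozyme gene *Lyz2*, with means of 11630, 5071 and 11660 CPM in Veh, HC3 and RSM M[0]. In M[0], 7 of the 9 macrophage markers were called lower with HC3 (median -1.22) and 3 with RSM (median -0.71), beside 6.11% and 6.51% of all tested genes. By the edgeR FDR alone 9 were lower with HC3 (21.5% of all tested genes) and 8 with RSM, for which that share is not given. In M[IL-4], HC3 lowered 2 of 9 (median -0.66) and RSM 0 (median -0.01), beside 5.53% and 6.00% of all tested genes. By the FDR alone 1 was lower and 2 were higher with RSM, for which the shares of all tested genes are not given either. *Csf1r* fell 1.39 log2 units with HC3 and 1.21 with RSM in M[0]. Neutrophil markers summed to at most 2.04 CPM in any library, with *S100a9* and *Elane* at 0 throughout. *Cxcr2* was called higher with IL-4 in vehicle and lower with both inhibitors in M[IL-4]. Its M[IL-4] means were 0.541, 0.092 and 0.036 CPM for Veh, HC3 and RSM, from 29, 5 and 2 counts per group. *S100a8* was called higher with RSM in M[0] (1.26 CPM, against 0.391 with Veh). The part of stromal, macrophage and neutrophil markers in the class II results was not tested.

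Replicate 2 held the highest value of *H2-Aa*, *H2-DMb1*, *Cd74* and *Ciita* in 6 of 6 groups, and of *H2-Ab1*, *H2-Eb1* and *H2-DMa* in 5 of 6. *Col1a1*, a collagen of stromal cells, was lowest in replicate 2 in 6 of 6 groups, from 102 CPM in Veh M[IL-4] to 534 in HC3 M[0]. Without replicate 2 in every group, HC3 lowered 7 members in M[0] and 5 in M[IL-4], RSM lowered 6 and 8, and IL-4 raised 7 in vehicle. Which of mouse, culture or library preparation the number stands for cannot be told from the labels.

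Finally, all genes with a mean of at least 1 CPM in some group (13079) were ranked by how closely they followed the classical chains, as the Pearson correlation of log2 CPM over the 18 libraries with the mean standardized level of *H2-Aa*, *H2-Ab1* and *H2-Eb1*. This is a description, since all libraries of a group share their treatment. *Cd74* stood next after those 3 genes (r = 0.982). The 10 nearest genes that are not members were *Dcstamp* (0.973), *Plk2* (0.970), *Sh2d1b1* (0.969), *Serpinb6b* (0.961), *Slamf8* (0.957), *Gm17749* (0.956), *Abcg1* (0.956), *Dnmt3a* (0.955), *Gadd45b* (0.953) and *AU020206* (0.953). *Dcstamp*, a fusion protein of dendritic cells and osteoclast precursors, stepped down like the chains, with means of 11.4, 3.35 and 0.263 CPM for Veh, HC3 and RSM in naïve cells and of 78.7, 11.7 and 2.51 CPM after IL-4. *Ciita* ranked 39 (r = 0.922), *H2-DMa* 238 (0.821), *H2-DMb1* 348 (0.789) and *H2-DMb2* 2686 (0.451).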

How the data were processed

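Bulk RNA-seq was done on 18 BMDM libraries, 3 in each of 6 groups taken from the labels. Per the study's methods and processing notes, fastp trimming by the authors was followed by STAR alignment to GRCm38 (local mode), and read pairs of mapping quality 40 were counted over exons with featureCounts, duplicates marked by Picard included. The annotation release and strand setting are not given in the sources used here. The deposited table holds raw counts per Ensembl gene, and 55144 of 55385 identifiers were matched to a symbol in the GRCm38 annotation.

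Genes that reached 10 counts in 2 or more libraries were fitted in edgeR 4.0.16 (R 4.3.3; TMM, 1 coefficient per group, all 18 libraries, quasi-likelihood F-test), and p-values were adjusted by Benjamini-Hochberg over all tested genes in each comparison. SE was the log2 fold change divided by the square root of F. Intervals cover 95%, and per-length levels used the union of exons. The edgeR and DESeq2 fits were tested on simulated data, for 1 comparison only (an inhibitor against vehicle in naïve cells). Near copies were found with blastn 2.17.0 (at least 98% identity over 100 bases). Alternatives were blocks on the replicate number, DESeq2 1.42.0, other filters and scalings, only the compared groups, no mitochondrial genes, and each replicate number or library left out.

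The labels do not tie replicate numbers to mice. Libraries with the same number deviated together from their group means within a polarization (r = 0.11 to 0.372, 18 of 18 pairs above 0.1), while across polarizations 12 of 27 pairs did. The main fit held no block, so its SE, FDR and calls do not use this pairing. Blocks on the number were run as alternatives. Libraries of a group differed by more than sampling noise, with a chi-square per gene of 5.87 to 18.4. If the libraries do not come from separate mice or cultures, p-values measure only the spread between them.

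The members and lists were chosen with earlier results of these data known. All 9 members are named, with up to 4 called genes of the wider pathway per inhibitor or vehicle IL-4 comparison (largest change, mean of at least 1 CPM in the higher group), the other class II region chains, the 10 nearest genes by correlation, and markers of other cell types that moved with a result.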

Additional observations from a re-analysis of the deposited data

Results flagged for a closer look

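For 2 members the IL-4 response differed between RSM and vehicle by the test of the difference itself (edgeR quasi-likelihood interaction, Benjamini-Hochberg FDR). *H2-DMb1* had an interaction of -0.996 on the log2 scale (FDR = 0.00131). Its M[IL-4] value against M[0] was 1.39 with Veh and 0.39 with RSM. *H2-DMa* had an interaction of -0.94 (FDR = 0.0388), from 2.09 with Veh and 1.15 with RSM. The FDR of *H2-DMa* was 0.0501 in a fit of only the compared groups and up to 0.491 with libraries left out (without replicate 3), and that of *H2-DMb1* up to 0.0866 (also without replicate 3). Both are chains of H2-M, and both were short of the fold threshold.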

How the results depend on the processing

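Results were recomputed under up to 29 settings, of which 3 left out a replicate number and 18 a single library; the block within each polarization could not be fitted for comparisons of M[IL-4] with M[0]. Of 88 log2 fold changes of members, 66 kept their direction and their side of the call threshold in every setting run, and 18 of 22 counts of called genes stayed within 1.5 times. The number of members called for the RSM by IL-4 interaction, 0 in edgeR, was 1 with the replicate block, 1 with the replicate block within each polarization, 1 with DESeq2, 2 with no count filter and 1 without mitochondrial genes. The genes were *Ciita* under the blocks and *H2-DMb1* under DESeq2 (-1.01) and without mitochondrial genes (-1.01). With libraries left out this count ran from 0 to 3, the members called with HC3 in M[IL-4] from 3 to 8, the wider pathway genes called for the RSM interaction from 1 to 3, and those for HC3 against RSM in M[IL-4] from 1 to 2. The replicate block within each polarization also called *H2-DMb2* for RSM in M[0] (-1.04), as did a fit of only the compared groups (-1.03), and the blocks changed no other call of a member.

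Values near 0 changed sign when libraries were left out. For the HC3 interaction they ran from -0.0052 to 0.59 for *H2-Aa*, from -0.045 to 0.51 for *H2-Ab1*, from -0.038 to 0.93 for *H2-DMb2* and from -0.34 to 0.19 for *Cd74*. For the RSM interaction they ran from -0.16 to 0.35 for *H2-Ab1* and from -0.12 to 0.29 for *Cd74*. For HC3 against RSM in M[0] they ran from -0.33 to 0.076 for *H2-DMa* and from -0.13 to 6.042e-06 for *H2-DMb1*, and for IL-4 with vehicle from -0.19 to 0.56 for *H2-DMb2*. The cause was not tested. *H2-DMb2* values rest on 4 to 38 counts per library.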
